A study of Mus musculus with 15 samples.

Results

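The SLAM (signalling lymphocytic activation molecule) family gene Slamf8 and 5 further receptors of the same family, Slamf7, Slamf9, Cd48, Cd84 and Ly9, were followed in the intestine of mouse embryos. These 6 genes were taken by symbol from the 36528 Entrez gene IDs that every file lists. Slamf8 was picked because its count was higher in both Casp8 mutants than in wildtype, so its values in those comparisons describe the choice and carry no test. The other 5 genes entered as members of the family.

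The libraries were polyA RNA from intestine at embryonic day e16.5, labelled as small intestine, in 3 genotypes of 5 libraries each. All 15 libraries were MLKL knockout, the controls included. The wildtype group carried wildtype Casp8, the knockout group was a Casp8 MLKL double knockout, and the C362A group carried a Casp8 C362A knockin. The labels call the tissue of the C362A libraries "Inflammation" and that of the other 10 libraries "Normal". They give no strain, sex, litter or embryo, and do not state whether a library was 1 animal. The p-values below therefore measure the spread between these libraries, part of which may be technical. Each library was whole tissue, and in bulk tissue a change in the number of cells of a type and a change in RNA per cell cannot be told apart.

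SLAM family receptors are immunoglobulin-like surface proteins of blood-derived cells. Most bind a copy of themselves on a neighbouring cell, whereas CD48, which is anchored in the membrane by a lipid, is the partner of CD244. Several members carry tyrosine switch motifs in their tails that recruit the small adaptors SAP and EAT-2 and, through them, Src family kinases; SLAMF8 and SLAMF9 have short tails without such motifs. SLAMF8 is known from mouse macrophages, where it holds back the phagocyte NADPH oxidase. Caspase-8 is the protease that starts death receptor apoptosis and restrains necroptosis, in which MLKL ruptures the membrane, and the C362A change removes its catalytic cysteine.

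The stretch before 1 annotated start site of Slamf8 is shown because it holds the letters of an interferon-type element close to that site, and that of its relative Slamf9 because it is the nearest family gene. Each is the 250 bases before the start site of the RefSeq promoter table in build GRCm38.p6, written 5′ to 3′ on the gene's strand. RefSeq's spans of both genes, given below, reach beyond these start sites, so both windows lie inside the spans. Slamf8 is read from the minus strand of chr1:172590569-172590818, and Slamf9 from the plus strand of chr1:172475110-172475359. Capitals mark the match to GAAA, any 2 bases, GAAA (read on the other strand) in Slamf8 and to GAGGAA in Slamf9.
Slamf8: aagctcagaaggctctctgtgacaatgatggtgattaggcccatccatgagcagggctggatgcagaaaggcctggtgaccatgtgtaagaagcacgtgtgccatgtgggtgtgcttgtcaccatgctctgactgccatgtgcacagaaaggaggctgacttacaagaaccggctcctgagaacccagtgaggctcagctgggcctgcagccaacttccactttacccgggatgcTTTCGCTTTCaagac
Slamf9: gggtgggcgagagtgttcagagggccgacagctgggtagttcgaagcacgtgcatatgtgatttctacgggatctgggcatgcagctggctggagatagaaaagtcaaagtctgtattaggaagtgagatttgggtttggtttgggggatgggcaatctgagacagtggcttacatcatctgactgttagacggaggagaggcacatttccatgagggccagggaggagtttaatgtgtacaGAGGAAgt

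Of the 6 genes, 5 had a RefSeq window, and windows of 300 bases (250 before and 50 after the start) were searched on both strands for 4 patterns. The interferon regulatory factor (IRF) pattern (GAAA, any 2 bases, GAAA) matched Slamf8 at -15 to -6 from the start, and 3.44% of 32851 windows hold it. The NF-kB-type pattern (GGGA, any 2 bases, TTCC) matched Slamf8 at 37 to 46, where 1.47% of windows hold it. The PU.1-type ETS core GAGGAA, in 28.28% of windows, matched Slamf8 at 20 to 25, Slamf9 at -8 to -3 and Cd84 at 12 to 17. The GAS (interferon-gamma activated site) pattern (TTC, any 3 bases, GAA), in 8.3% of windows, was not found in these letters. No match to any of the patterns was found in the windows of Slamf7 and Cd48. No matches overlapped. These are matches of letters, and no binding was measured.

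Library totals ran from 31896399 to 38532127 counts. The check of the labels held for RNA: Casp8 stood at 70.1 ± 5.97 CPM (counts per 1e+06 counts of a library, after scaling by TMM factors) in wildtype, 14.4 ± 1.65 in knockout and 69.9 ± 3.41 in C362A (SD, n = 5 each). A substitution need not change the RNA level, so this does not check the C362A label. Across 18370 tested genes, the quasi-likelihood test of edgeR, adjusted by Benjamini and Hochberg, called 15 genes between C362A and wildtype, 7 between knockout and wildtype and 2 between C362A and knockout, at an adjusted p under 0.05. One library, C362A replicate 5, weighed heavily on these counts: without it they were 1807, 7 and 805. Replicates are numbered in accession order only. Test results for C362A against wildtype that rest on this library are given with and without it. Sums, ratios and correlations are given only with it.

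Slamf8 was lowly expressed in wildtype intestine and higher in every mutant library. The 5 wildtype libraries held 14, 18, 15, 18 and 12 Slamf8 counts, which is 0.405, 0.494, 0.446, 0.588 and 0.320 CPM. The 5 knockout libraries held 45, 37, 71, 39 and 57 counts, or 1.26, 1.01, 1.88, 1.22 and 1.48 CPM. The 5 C362A libraries held 67, 84, 88, 56 and 54 counts, or 2.09, 2.27, 2.64, 1.62 and 1.62 CPM. No mutant library reached down to the highest wildtype library, while knockout replicate 3 lay above the lowest C362A libraries, replicates 4 and 5.

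Group means of Slamf8 were 0.451 ± 0.10 CPM in wildtype, 1.37 ± 0.333 in knockout and 2.05 ± 0.440 in C362A (SD, n = 5 each). The fitted difference was 2.18 on the log2 scale for C362A against wildtype (SE 0.23, 95% interval 1.69 to 2.67), a 4.54-fold higher level, and 1.61 for knockout against wildtype (SE 0.23, interval 1.11 to 2.10), a 3.04-fold higher level. These contrasts chose the gene and share the wildtype libraries. The 95% intervals do not allow for that choice, so they carry no test, and the differences may be overstated. Among the 18370 tested genes, 8 had a higher log2 fold change in the first and 15 in the second. The spread of the wildtype values was 0.872 times the SD that counting error alone gives at 12 to 18 counts, against 1.71 times in knockout and 1.79 times in C362A.

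**Figure D1:**
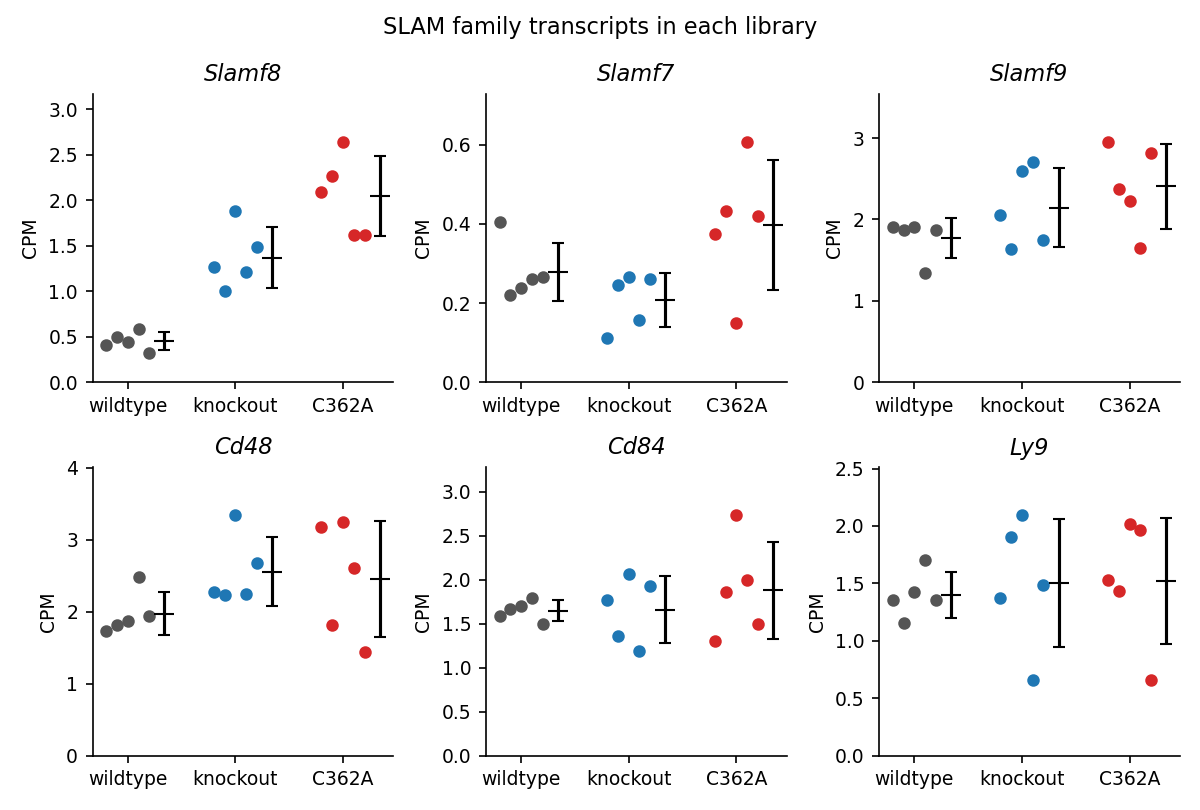
CPM (y axis, each panel with its own scale from 0) of the 6 genes in each of the 15 libraries; points are libraries, grouped by genotype on the x axis, and bars are the mean ± SD of 5 libraries. Slamf8 is the panel in which every knockout and C362A point lies above the highest wildtype point at 0.588 CPM; in the other 5 panels the groups overlap.

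The comparison of C362A with knockout was not used to choose Slamf8, although it shares its libraries with both comparisons that were. Slamf8 was 1.49-fold higher in C362A, a log2 difference of 0.58 (SE 0.21, interval 0.13 to 1.02), with overlapping groups. The unadjusted p was 0.0141 and the adjusted p 0.317 by edgeR, so the difference did not pass. Over the alternative settings the adjusted p ran from 0.0750 to 0.575, the lowest without C362A replicate 5. None of the 6 genes was called in this comparison, where the test called 0.0109% of all genes, and 2 of the 6 (Slamf8 and Slamf7) had an unadjusted p under 0.05, against 13.9% of all genes. The groups overlapped for all 6, while 2.85% of all genes had groups that did not. DESeq2 and limma-voom also called none of the 6.

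Slamf9, the other short-tailed member, is the nearest family gene to Slamf8. Slamf8 lies at chr1:172581377-172590873 and Slamf9 at chr1:172458569-172478421 (RefSeq, GRCm38.p6), with 103.0 kb between the spans. The wildtype libraries had 1.91, 1.86, 1.90, 1.34 and 1.87 CPM of Slamf9, the knockout libraries 2.05, 1.63, 2.60, 2.71 and 1.74, and the C362A libraries 2.96, 2.38, 2.22, 1.65 and 2.82. All groups overlapped, and wildtype replicate 4 was low within its group. Slamf9 was 1.35-fold higher in C362A than in wildtype (interval 1.02 to 1.79; unadjusted p = 0.0382, edgeR adjusted p = 0.298) and 1.21-fold higher in knockout (interval 0.909 to 1.60; adjusted p = 0.999915), so neither difference passed.

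Slamf7, a self-binding receptor of natural killer cells, plasma cells and activated macrophages, had the fewest counts of the 6 genes. Wildtype libraries held 14, 8, 8, 8 and 10 counts, knockout libraries 4, 9, 10, 5 and 10, and C362A libraries 12, 16, 5, 21 and 14. At such counts single reads matter, and wildtype replicate 1 (high) and C362A replicate 3 (low) lay apart from the rest of their groups. The log2 difference was 0.51 for C362A against wildtype (SE 0.35; adjusted p = 0.447), -0.40 for knockout against wildtype (SE 0.37; adjusted p = 0.999915) and 0.92 for C362A against knockout (SE 0.36, interval 0.16 to 1.67; adjusted p = 0.317, unadjusted 0.0202), by edgeR. None passed, and the last interval includes anything from a 1.12-fold to a 3.18-fold higher level in C362A.

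Cd48 encodes the lipid-anchored ligand of CD244 and is found on most leukocytes. Its levels were 1.73, 1.81, 1.87, 2.48 and 1.95 CPM in wildtype, 2.28, 2.23, 3.34, 2.24 and 2.68 in knockout, and 3.18, 1.81, 3.25, 2.61 and 1.44 in C362A. The C362A libraries spanned the widest range, with replicate 5 the lowest of all 15 libraries. Cd48 was 1.25-fold higher in C362A than in wildtype (interval 0.911 to 1.71; edgeR adjusted p = 0.443) and 1.30-fold higher in knockout (interval 0.950 to 1.78; adjusted p = 0.999915). Without C362A replicate 5, the log2 difference between C362A and wildtype went from 0.32 to 0.46, with an adjusted p of 0.118.

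Cd84 and Ly9 encode self-binding receptors with switch motifs in their tails. Cd84 ran from 1.49 to 1.80 CPM in wildtype, from 1.18 to 2.07 in knockout and from 1.31 to 2.73 in C362A, so the wildtype range lay inside both others. Its log2 difference was 0.19 (SE 0.21; adjusted p = 0.644) for C362A and 0.01 (SE 0.21; adjusted p = 0.999915) for knockout against wildtype, by edgeR. Ly9 ran from 1.15 to 1.70 CPM in wildtype, from 0.655 to 2.09 in knockout and from 0.659 to 2.01 in C362A. The lowest Ly9 values came from knockout replicate 4 and C362A replicate 5, at 21 and 22 counts, against 42 or more in the other 13 libraries. Ly9 differed from wildtype by 0.12 (SE 0.29; adjusted p = 0.852) in C362A and 0.11 (SE 0.29; adjusted p = 0.999915) in knockout. Without C362A replicate 5, the Ly9 difference between C362A and wildtype was 0.31 (SE 0.26, edgeR adjusted p = 0.435).

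Of the 5 family members other than Slamf8, 0 were called in C362A against wildtype, where edgeR called 0.0817% of all genes. At an unadjusted p under 0.05, 1 of the 5 (Slamf9) passed, against 15.9% of all genes. The log2 differences of these 5 were all above 0, from 0.12 to 0.51, with a median of 0.32, beside a median of 0.01 over all genes. In knockout against wildtype, 0 of the 5 were called against 0.0381% of all genes, 0 had an unadjusted p under 0.05 against 2.43%, and the median was 0.11. DESeq2 and limma-voom called none of the 5 in either comparison, and the 2 comparisons share the wildtype libraries. Slamf8 was the 1 member of 6 whose mutant libraries all exceeded wildtype, which holds for 0.86% of all genes in C362A and 0.37% in knockout; since this is the pattern that chose it, nothing is read from that share.

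**Figure D2:**
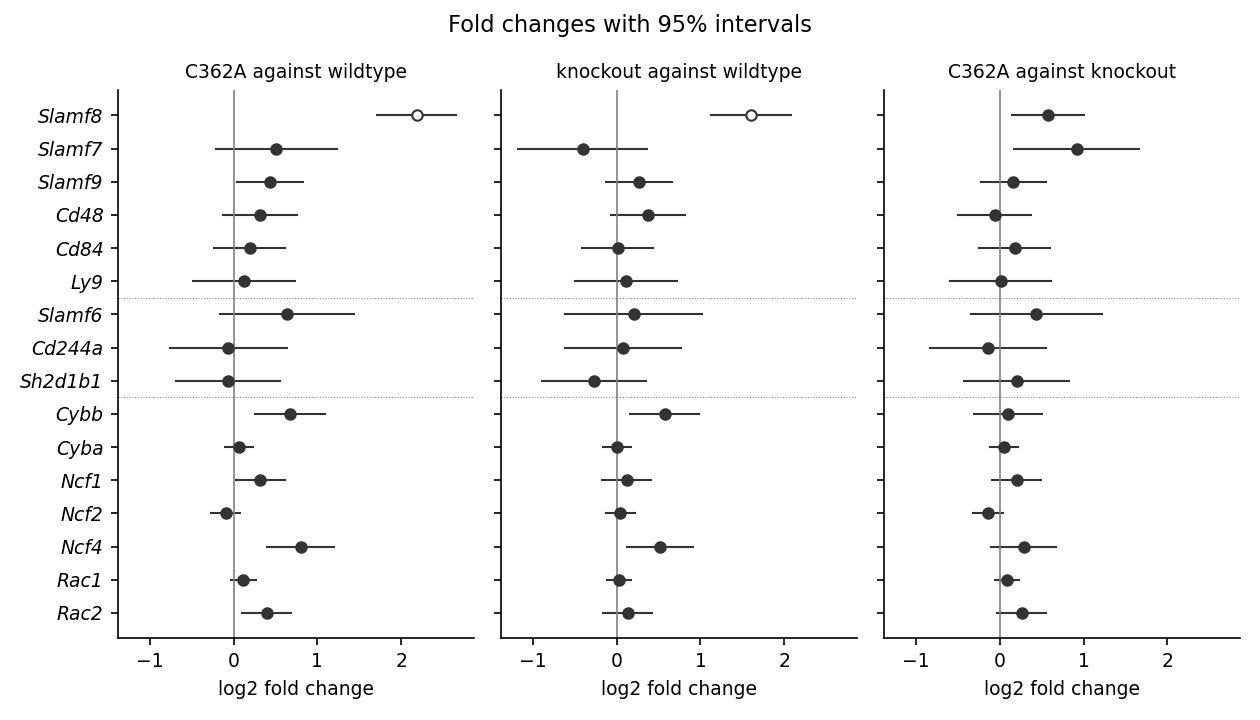
Log2 fold changes (x axis) with 95% intervals from the edgeR fit for the 6 genes, other SLAM receptors and an adaptor, and the NADPH oxidase genes, in the 3 comparisons. Slamf8 is drawn open in the first and second panel, where its values chose it, at 2.18 and 1.61, and its intervals there carry no test. All 5 other members lie between -0.40 and 0.92.

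Levels of different genes can be set side by side only per transcript length, for which the deposited RPKM (reads scaled to transcript length and library depth) was used. In wildtype the order of mean RPKM was Cd48 at 1.26, Slamf9 at 1.24, Ly9 at 0.527, Cd84 at 0.248, Slamf8 at 0.165 and Slamf7 at 0.0424. Cd48 and Slamf9 overlapped, and the ranges of the other neighbours in that order did not. In knockout Slamf8 ranked 4 of 6, at 0.501 RPKM, and overlapped Ly9 at 0.564 but not Cd84 at 0.250. In C362A Slamf8 ranked 3 of 6, at 0.749 RPKM, overlapping Ly9 at 0.572 and, by its highest library, Cd48 at 1.57, and below every library of Slamf9 at 1.67.

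As a share of the summed RPKM of the 6 genes, Slamf8 made up 3.41% to 5.84% in wildtype libraries, 9.48% to 12.5% in knockout and 13.1% to 18.3% in C362A. The summed RPKM of the other 5 was 3.31 ± 0.121 in wildtype, 3.97 ± 0.634 in knockout and 4.16 ± 0.687 in C362A (SD, n = 5 each). The shares of the 3 genotypes did not overlap, and they contain the Slamf8 values that chose the gene.

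**Figure D3:**
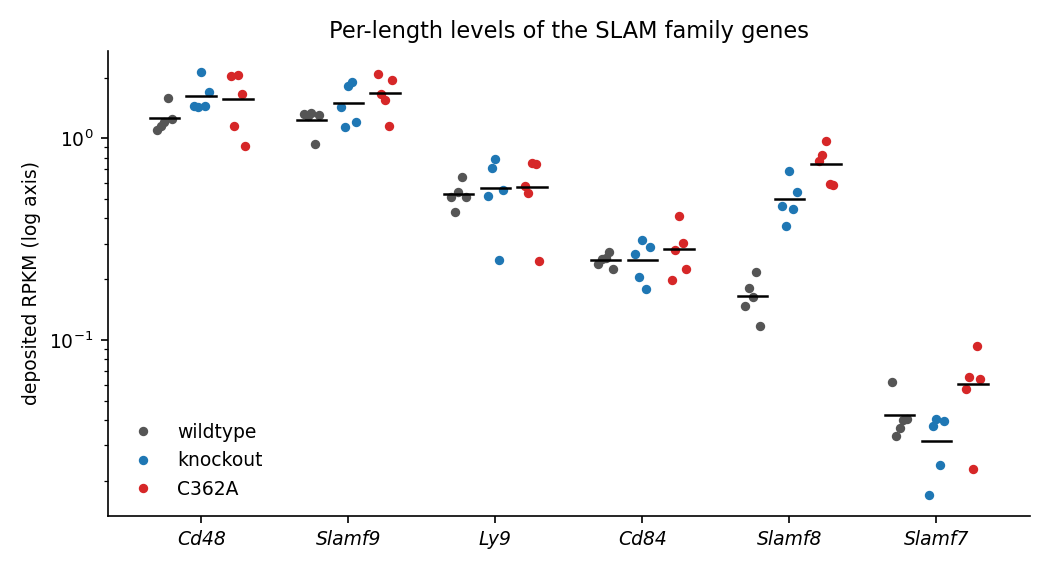
Deposited RPKM on a log axis (y) of the 6 genes (x) in each library, coloured by genotype; lines mark group means of 5 libraries. Slamf8 stands at 0.165 in wildtype, below Cd84, and at 0.749 in C362A, above Ly9 on average, while Cd48 and Slamf9 stay the highest pair in all 3 genotypes.

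The remaining family genes had few counts. Slamf6, a self-binding receptor of lymphoid cells, had 4 to 26 counts per library and a log2 difference of 0.64 (SE 0.38; edgeR adjusted p = 0.396) for C362A against wildtype. Cd244a, the receptor for CD48, had 9 to 39 counts and a difference of -0.06 (SE 0.34; adjusted p = 0.941). Slamf1 had 0 to 6 counts per library and was not tested. Of the adaptors, Sh2d1b1 (EAT-2A) had 9 to 27 counts and a difference of -0.06 (SE 0.30; adjusted p = 0.929), while Sh2d1a (SAP) and Sh2d1b2 (EAT-2B) had 0 counts in all 15 libraries. A count of 0 allows up to 3 counts, which is 0.0941 per 1e+06 counts in the smallest library and covers counting error only. In knockout against wildtype, Slamf6, Cd244a and Sh2d1b1 differed by 0.20, 0.08 and -0.27, each with an adjusted p of 0.999915.

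Among 15 kinases, phosphatases and other enzymes downstream of SLAM receptors, 0 were called in C362A against wildtype by edgeR, DESeq2 or limma-voom; 5 had an unadjusted p under 0.05, all higher, against 15.9% of all genes in either direction, and the median log2 difference was 0.16. The 3 with the smallest p were Fgr, a Src family kinase of myeloid cells, at 0.33 (SE 0.10), Vav1, a signalling protein of blood cells, at 0.44 (SE 0.15), and Fyn, the kinase that SAP recruits, at 0.16 (SE 0.07). Without C362A replicate 5, Fgr (adjusted p = 0.0365) and Vav1 (adjusted p = 0.0201) passed, in a fit that called 4.29% of all genes higher. In knockout against wildtype 0 of the 15 were called, 0 had an unadjusted p under 0.05 against 2.43% of all genes, and the median was 0.04.

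The phagocyte NADPH oxidase makes superoxide, and its 7 genes were read because SLAMF8 is known to restrain it. In C362A against wildtype 0 of 7 were called by edgeR or limma-voom and 1 (Ncf4) by DESeq2; 4 had an unadjusted p under 0.05, all higher, against 15.9% of all genes in either direction, and the median was 0.32. Ncf4, a cytosolic subunit, was 3.13 ± 0.322 CPM in C362A, 2.56 ± 0.544 in knockout and 1.80 ± 0.464 in wildtype, a log2 difference of 0.80 for C362A against wildtype (SE 0.19; edgeR adjusted p = 0.273). Cybb, the catalytic membrane subunit, differed by 0.67 (SE 0.20; adjusted p = 0.285) and Rac2, the blood-cell GTPase of the complex, by 0.39 (SE 0.14; adjusted p = 0.285). Without C362A replicate 5 these 3 passed, with adjusted p of 0.0276, 0.0314 and 0.0236, against 4.29% of all genes called higher. In knockout against wildtype 0 of 7 were called, 2 had an unadjusted p under 0.05 against 2.43% of all genes, and the median was 0.12.

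Mac-1, the integrin that SLAMF7 works with in phagocytosis, Fc receptors and their signalling chains made a list of 9 genes. None was called in C362A against wildtype by edgeR, DESeq2 or limma-voom, and 1 had an unadjusted p under 0.05 (15.9% of all genes did), Fcer1g, the common Fc receptor gamma chain, at 0.35 (SE 0.11; edgeR adjusted p = 0.285). The Mac-1 subunits Itgam and Itgb2 differed by 0.34 (SE 0.18) and 0.38 (SE 0.23). Without C362A replicate 5 none of the 9 passed. In knockout against wildtype 0 were called, against 0.0381% of all genes, and 0 had an unadjusted p under 0.05, against 2.43%. In C362A against knockout, edgeR, DESeq2 and limma-voom called 0 genes of the enzyme, oxidase and Mac-1 lists, of which 2, 0 and 2 had an unadjusted p under 0.05 (13.9% of all genes did); without C362A replicate 5, Fgr passed there (adjusted p = 0.0418), in a fit that called 4.35% of all genes.

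Macrophage markers were measured beside Slamf8 because its protein is known from these cells. None of the 22 genes of a macrophage and monocyte list was at 0 in all libraries of a genotype, and 21 were tested. Their summed level was 351 to 565 CPM in wildtype, 407 to 519 in knockout and 395 to 501 in C362A, so the genotypes overlapped throughout. Of the 21, 1 was called in C362A against wildtype, Adgre1 (F4/80), at 0.75 (SE 0.13; edgeR adjusted p = 0.0361), where the test called 0.0817% of all genes; DESeq2 called Adgre1 and Spi1, and limma-voom called neither. Spi1, which encodes PU.1, differed by 0.57 (SE 0.13; edgeR adjusted p = 0.256) and Lyz2 (lysozyme) stood at 50.6 ± 25.9 CPM in C362A and 25.3 ± 2.58 in wildtype (SD, n = 5; edgeR adjusted p = 0.285). At an unadjusted p under 0.05 by edgeR, 7 of the 21 were higher and 2 lower in C362A against wildtype, against 15.9% of all genes in either direction. In knockout against wildtype 0 were called, and 1 was higher and 1 lower at such a p, against 2.43% of all genes. Without C362A replicate 5, 6 of the 21 were called in C362A against wildtype, 4 higher and 2 lower, in a fit that called 9.76% of all genes. Among the 4 higher were Adgre1, Spi1 and Lyz2, with edgeR adjusted p of 0.0181, 0.0138 and 0.0301. The 2 lower were Mertk, at -0.62 (SE 0.15; edgeR adjusted p = 0.0273), and Cd163, at -1.50 (SE 0.40; edgeR adjusted p = 0.0359). The list thus held genes that moved in either direction.

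Per 1000 counts of the macrophage list, Slamf8 had 0.910 to 1.16 counts in wildtype, 2.0 to 3.66 in knockout and 3.41 to 5.31 in C362A. Per 1000 counts of Csf1r, the receptor for macrophage growth factor, it had 4.37 to 6.96, 9.38 to 19.7 and 18.7 to 36.4. Csf1r itself differed by -0.32 (SE 0.23, edgeR adjusted p = 0.366) in C362A against wildtype in the fit without C362A replicate 5. This difference is given for that fit only. The ratios include that library, which gave the lowest C362A ratio to Csf1r, 18.7. Per 1000 counts of Adgre1, the marker that was itself higher, Slamf8 had 41.8 to 62.7, 81.9 to 143 and 104 to 178. On each of these scales every mutant library lay above every wildtype library. With the mean log2 level of the macrophage list as a covariate, the Slamf8 differences were 2.09 for C362A and 1.55 for knockout against wildtype, and 0.54 for C362A against knockout. These ratios contain the Slamf8 counts that chose the gene and are a description.

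**Figure D4:**
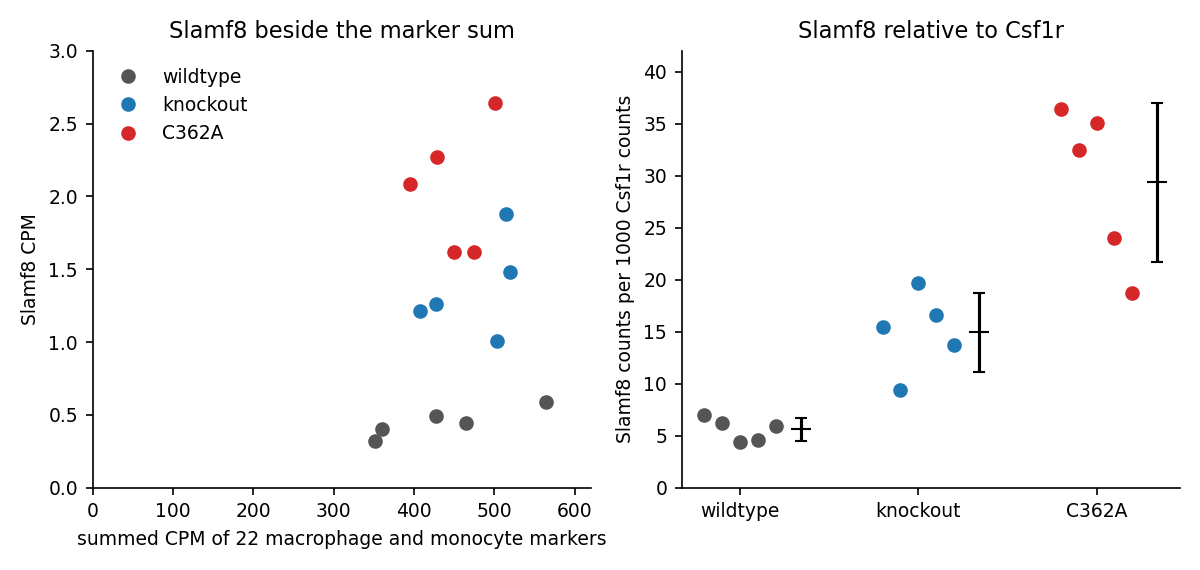
Left, Slamf8 CPM (y) against the summed CPM of 22 macrophage and monocyte markers (x) in 15 libraries; right, Slamf8 counts per 1000 Csf1r counts by genotype, with mean ± SD of 5 libraries. The marker sum spans 351 to 565 CPM in wildtype alone and covers the range of both mutants, while Slamf8 per 1000 Csf1r is 4.37 to 6.96 in wildtype and 9.38 or more in every mutant library.

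Sums of markers of other cells had unlike ranges in the genotypes, and their part in the Slamf8 values was not tested. The summed level of 4 leukocyte genes was 67.3 to 77.7 CPM in wildtype, 57.7 to 82.1 in knockout and 67.1 to 112 in C362A. In C362A against wildtype, 0 of these 4 were called by edgeR, DESeq2 or limma-voom, and all 4 had an unadjusted p under 0.05, against 15.9% of all genes; Ptprc (CD45) differed by 0.42 (SE 0.15; edgeR adjusted p = 0.285). The neutrophil list summed to 10.2 to 39.5 CPM in wildtype, 12.9 to 66.2 in knockout and 11.9 to 93.2 in C362A. The intestinal epithelium list summed to 6064 to 17600 CPM in wildtype, 9163 to 11232 in knockout and 4698 to 8693 in C362A, and none of its genes was at 0; in C362A against wildtype 4 of its 9 genes had an unadjusted p under 0.05, all lower. The endothelium list summed to 284 to 342, 298 to 402 and 326 to 421 CPM, with 4 of 4 genes at an unadjusted p under 0.05 in C362A against wildtype, all higher. The smooth muscle list summed to 3648 to 4454, 4041 to 4881 and 4138 to 5418 CPM, with 3 of 5 genes at such a p, all higher. For the epithelium, endothelium and smooth muscle lists, too, the share of all genes at such a p was 15.9%. Genes of stomach, pancreas and liver, which a dissection can bring along, summed to 111 to 472, 136 to 740 and 116 to 298 CPM. No gene of the epithelium, endothelium, smooth muscle or dissection lists was called by edgeR, DESeq2 or limma-voom in any comparison. T, natural killer and innate lymphoid genes summed to 47.0 to 69.5, 52.1 to 69.5 and 36.7 to 52.5 CPM, and the B and plasma cell list to at most 4.57 CPM. The dendritic cell list summed to 19.6 to 21.8, 18.8 to 27.4 and 21.6 to 23.2 CPM. In C362A against wildtype, edgeR called 0 genes of the neutrophil, dendritic and T and natural killer lists. At an unadjusted p under 0.05, 2 of 11 neutrophil genes were higher, and 1 of 7 dendritic and 1 of 8 T and natural killer genes lower, against 15.9% of all genes. The median log2 difference was 0.96 for the neutrophil (11 of 11 positive), 0.07 for the dendritic (6 of 7) and -0.12 for the T and natural killer genes (3 of 8). In knockout against wildtype the neutrophil median was 0.56, with 11 of 11 positive and 0 called. The mast cell and basophil list summed to 49.5 to 64.0, 34.8 to 67.8 and 47.2 to 101 CPM. In C362A against wildtype edgeR called none of its 6 tested genes. Of these, 3 had an unadjusted p under 0.05, against 15.9% of all genes. DESeq2 called 1 gene of the list, Mcpt4, a mast cell protease. In a fit without C362A replicate 5, which called 9.76% of all genes, C362A against wildtype had 2 of 4 leukocyte, 2 of 11 neutrophil, 1 of 7 mast cell, 2 of 4 endothelium and 1 of 5 smooth muscle genes called higher, and 1 of 9 epithelium and 1 of 8 T and natural killer genes called lower.

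With genotype means taken off, the members differed in how they followed these sums over the 15 libraries. Pearson's r with the leukocyte sum was 0.89 for Ly9, 0.79 for Cd48, 0.70 for Cd84, 0.48 for Slamf8, -0.05 for Slamf7 and -0.57 for Slamf9. Slamf8 had r = 0.52 with the macrophage sum and its highest value over the marker lists, 0.56, with the stomach, pancreas and liver sum. Cd84 had r = 0.77 with the mast cell and basophil sum, and Ly9 had r = 0.80 with the neutrophil sum. Among members, r was 0.70 for Cd48 with Ly9, 0.62 for Slamf8 with Cd84 and 0.58 for Slamf8 with Cd48. The Ly9 values include its 2 low libraries, knockout replicate 4 and C362A replicate 5, at 21 and 22 counts. No r was computed without them. The points share libraries and depth, and with few counts per gene all these values are descriptions only.

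**Figure D5:**
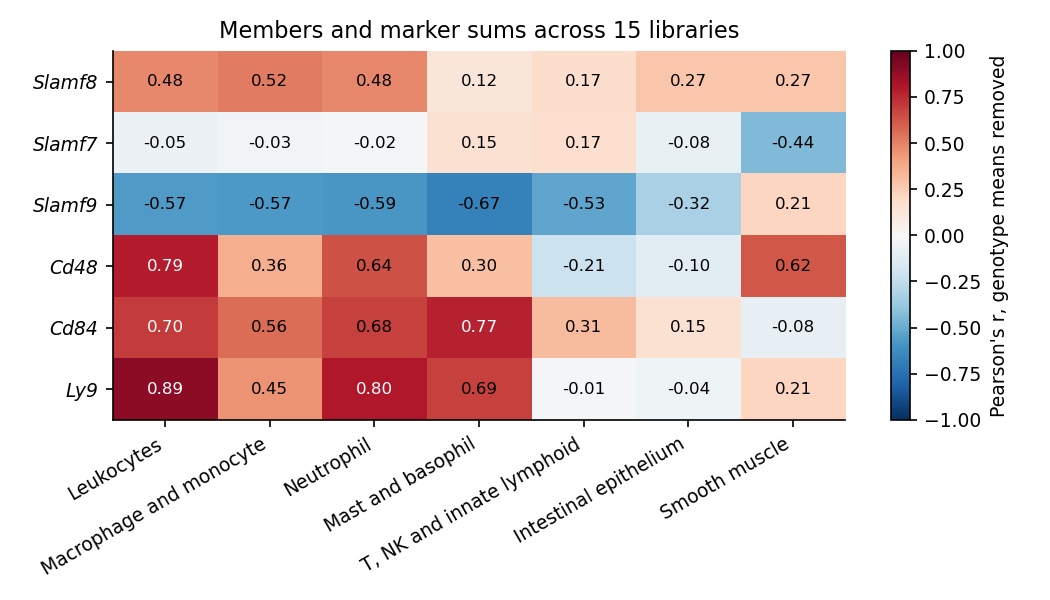
Pearson's r (colour and printed value) between log2 CPM of each of the 6 genes (rows) and the log2 summed CPM of marker lists (columns) over 15 libraries, genotype means removed. In the leukocyte column Ly9, Cd48 and Cd84 lead (0.89, 0.79 and 0.70), Slamf8 stands at 0.48 and Slamf9 at -0.57. The dendritic, B and plasma, endothelium, and stomach, pancreas and liver lists are not drawn. Slamf8 had its highest r, 0.56, with the last of these.

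The genes most like Slamf8 were ranked by Pearson's r of log2 CPM over the 15 libraries among the 15816 tested genes whose log2 CPM averaged 0 or more. The first 8 were Cxcl10 (0.95), Cd86 (0.92), Clec4n (0.91), Mmp9 (0.91), Adgre1 (0.88), Siglece (0.86), Dnase1l3 (0.85) and Nfkbie (0.84), where 95% of the candidates lay below 0.505. Much of this is the genotype pattern that Slamf8 was chosen for. With genotype means removed, r was 0.61 for Cxcl10 and for Nfkbie, 0.49 for Adgre1, 0.44 for Cd86 and Siglece, 0.36 for Mmp9, 0.17 for Dnase1l3 and 0.15 for Clec4n, and 95% of candidates lay below 0.428. Cxcl10, a chemokine induced by interferon, averaged 0.734 CPM in wildtype, 2.0 in knockout and 4.29 in C362A. The means of all 8 genes had the same genotype order as Slamf8. The ranking by r favours that order, so nothing is read from it. The r that ranked these 8 also contains the part within genotypes, so the choice favours high values there too. Their r with genotype means removed is therefore a description, and nothing is read from its place beside 0.428.

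All 6 genes lie on chromosome 1, as does Casp8, 112.7 to 113.7 Mb away. Slamf7, Cd48, Cd84 and Ly9 sit 690.7 to 974.0 kb from Slamf8. RefSeq lists 30 other genes within 100 kb of a member, of which 18 were in the files and 10, Slamf6 and Cd244a among them, were tested. None of the 10 was called by edgeR, DESeq2 or limma-voom in any comparison; 3 had an unadjusted p under 0.05 in C362A against wildtype, 1 in knockout against wildtype and 2 in C362A against knockout, beside 15.9%, 2.43% and 13.9% of all genes. The nearest tested genes beside Slamf8 were 4933439K11Rik, 30571 bp to the left, at -0.03 (SE 0.34), and Dusp23, 39896 bp to the right, at -0.18 (SE 0.12), in C362A against wildtype. Without C362A replicate 5, 1 of the 10 was called in C362A against wildtype, Igsf9, which was chosen after its value was seen; that fit called 9.76% of all genes. With all libraries, the 10 ran from -0.31 to 0.64 in C362A against wildtype, where Slamf8 stood at 2.18. Reads were not kept by strand, so those of overlapping genes on opposite strands cannot be told apart.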

How the data were processed

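Intestinal RNA of 15 libraries was analysed. Per the labels' protocols, RNA was column-purified and made into TruSeq v2 libraries, a kit that does not mark strand, and read as single ends of 50 bp. Per the submitters' processing notes, the aligner was GSNAP and the genome build GRCm38; the sources used here give no version, settings or annotation. Per the file headers, the deposited counts are unique reads assigned to gene models, and the authors also deposited RPKM per gene. RefSeq named 31049 of the 36528 Entrez IDs. Counts were fitted in R 4.3.3 with edgeR 4.0.16 (TMM, filterByExpr with a minimum count of 10, 1 mean per genotype, robust quasi-likelihood test, Benjamini-Hochberg over 18370 genes), with limma 3.58.1 and DESeq2 1.42.0 as alternatives; the biological coefficient of variation was 0.174. Libraries of a genotype differed by a chi-square of 10.7 to 138 per gene, far above sampling noise, so none was counted as a duplicate. The edgeR script was tested on simulated data.

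Members, gene lists, marker lists and motif patterns were chosen with earlier results of these data known. Named genes were the members, the remaining SLAM receptors and adaptors, from each pathway list those called and the 3 with the smallest p in C362A against wildtype, called neighbours within 100 kb and the nearest tested gene on each side of Slamf8, and the 8 genes most like Slamf8. The same naming was applied to the macrophage list; the other marker lists are given as sums and counts, with Ptprc, the smallest p of the leukocyte list, and Mcpt4, chosen after its value was seen. Mertk and Cd163 of the macrophage list were named because they were called lower without C362A replicate 5, after their values were seen. The replicate numbers come from accession order and pair nothing.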

Additional observations from a re-analysis of the deposited data

Results flagged for a closer look

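In 3 of 27 groups of 5 libraries (9 genes of the SLAM family and its adaptors in 3 genotypes), 1 library lay far from the other 4; chance alone marks about 1 group in 20. Slamf7 stood at 0.405 CPM in wildtype replicate 1, with the next library at 0.266. Slamf9 stood at 1.34 CPM in wildtype replicate 4, with the next library at 1.86. Cd48 stood at 2.48 CPM in wildtype replicate 4, with the next library at 1.95. No such library was found for Slamf8 in any genotype.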

How the results depend on the processing

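Each fit was repeated under 28 settings, 15 of them leaving out 1 library. Slamf8 ranged from 2.07 to 2.29 (C362A against wildtype), 1.46 to 1.71 (knockout against wildtype) and 0.47 to 0.72 (C362A against knockout) with a library left out, and fell to 0.58 and 0.36 on log2(RPKM + 1), where the pseudocount outweighs its level, and to 1.67 and 1.17 on log2(RPKM + 0.1). The 1 member called in either comparison with wildtype was Slamf8, which those comparisons chose, so its call is no evidence of stability. The count was 1 in all 29 alternatives, a threshold of 0.01 included, for C362A against wildtype, and 0 members were called in all 29 for C362A against knockout. For knockout against wildtype it was 0 at 0.01, on log2(RPKM + 1), with only the 2 groups compared, and without wildtype 1, wildtype 3 or knockout 5 (range 0 to 1). Genes called in C362A against wildtype (15) were 7 at 0.01, 56 by DESeq2, 7 with a Y-linked covariate, and 7 to 1807 with a library left out (7 without C362A 2, C362A 3 or wildtype 5; 1807 without C362A 5). Those in knockout against wildtype (7) were 1 at 0.01, 13 by DESeq2, 1 with only the 2 groups, 3 with the Y-linked covariate and 1 to 8 with a library left out (1 without wildtype 3, 2 without wildtype 1 or knockout 5, 3 without knockout 2 or C362A 2, 4 without wildtype 4, knockout 1, knockout 3 or C362A 3). Those in C362A against knockout (2) were 31 by DESeq2, 5 and 4 by limma on log2(RPKM + 1) and log2(RPKM + 0.1), 4 with only the 2 groups, 8 with the macrophage covariate, and 2 to 805 with a library left out (805 without C362A 5). Uncalled differences near 0 changed sign: Ly9, C362A against wildtype, -0.12 (macrophage covariate); Cd84, knockout against wildtype, -0.0026 (library totals), -0.0035 (voom), -0.0078 (log2(RPKM + 0.1)), -0.074 (macrophage covariate) and -0.077 to 0.108 with a library left out; Ly9, knockout against wildtype, -0.067 (macrophage covariate) and -0.040 to 0.291; Cd48, C362A against knockout, 0.050 (Y-linked covariate) and -0.180 to 0.082; Ly9, C362A against knockout, -0.0012 (voom), -0.010 (block), -0.054 (macrophage covariate) and -0.18 to 0.20. The causes were not tested. The block divides 1 unbroken series of sample IDs by the order of genotypes in it, an inference that no label makes. List counts without C362A replicate 5 were added after seeing the data. No paired analysis was possible because the labels give no replicate numbers. Slamf7 was not tested under a filter of 1 CPM in 5 libraries, nor in the fits of only 2 groups with knockout, and at 4 to 21 counts its depth shows only large differences.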
